A study of Mus musculus with 4 samples.

Results

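The 8 genes described here encode proteins with which the vessel lining controls clotting and clot removal: Vwf, F8, Thbd, Procr, Tfpi, Plat, Entpd1 and Ptgis. They were chosen by name, as every non-control probe whose accession RefSeq assigns to one of these symbols. This gave 13 probes of 41174 non-control probes, for 8 of 18353 genes with a symbol on the array. The cells were cardiac endothelial cells of adult mice, from 2 control samples (wild type) and 2 G2-EC-KO samples, which the labels call a Gata2 knock out, and each RNA sample was read on 1 Agilent 1-colour array. The promoter that drives the deletion, the age of the mice beyond adult and whether a sample was 1 animal or a pool are not given in the sources used here. The p-values therefore reflect how far these samples spread, which could be partly technical. No treatment is given for either group.

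Resting endothelium keeps blood fluid by several routes. Thrombomodulin and the endothelial protein C receptor turn thrombin towards activating protein C, tissue factor pathway inhibitor blocks the start of coagulation, ectonucleotidase and prostacyclin restrain platelets, and tissue plasminogen activator starts the breakdown of fibrin. Von Willebrand factor acts the other way, since it tethers platelets at sites of injury and carries factor VIII in plasma, and it is a standard marker of endothelial cells. GATA2, a DNA-binding regulator active in blood progenitors and vessel endothelium, recognises the core sequence GATA.

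Since the labels name a knock out of a GATA factor, the sequence before the start sites of the 8 genes was searched for a GATA motif on both strands, in the forms AGATAA and TGATAA or, with a last G, AGATAG and TGATAG. RefSeq windows of 250 bases upstream of the start site (GRCm38.p6) were found for 4 of the 8 genes, Procr, Tfpi, F8 and Entpd1, in 6 windows. Vwf, Thbd, Plat and Ptgis had none. At least 1 form occurred in 3 of the 6 windows, both of Tfpi and that of F8, against 26.5% of the 32851 windows of the table. The windows of Procr and Entpd1 held none of these letters. The Tfpi and F8 windows are shown because they hold the motif, and that of Procr because Procr varied most between arrays. Each runs 5′ to 3′ on the strand of the gene and ends at the base before the start site, and capitals mark the motif, which reads CTATCT where AGATAG lies on the opposite strand.
Tfpi, chr2:84474175-84474424, minus strand: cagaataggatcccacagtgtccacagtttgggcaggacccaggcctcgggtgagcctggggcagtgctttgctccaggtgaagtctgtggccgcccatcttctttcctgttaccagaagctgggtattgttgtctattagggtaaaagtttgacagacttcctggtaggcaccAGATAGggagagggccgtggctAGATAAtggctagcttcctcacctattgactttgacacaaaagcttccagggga
Tfpi, chr2:84476760-84477009, minus strand: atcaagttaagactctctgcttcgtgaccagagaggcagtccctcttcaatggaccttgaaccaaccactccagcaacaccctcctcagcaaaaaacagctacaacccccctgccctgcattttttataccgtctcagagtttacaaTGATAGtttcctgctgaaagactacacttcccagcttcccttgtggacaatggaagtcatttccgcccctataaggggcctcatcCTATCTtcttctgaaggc
F8, chrX:75380042-75380291, minus strand: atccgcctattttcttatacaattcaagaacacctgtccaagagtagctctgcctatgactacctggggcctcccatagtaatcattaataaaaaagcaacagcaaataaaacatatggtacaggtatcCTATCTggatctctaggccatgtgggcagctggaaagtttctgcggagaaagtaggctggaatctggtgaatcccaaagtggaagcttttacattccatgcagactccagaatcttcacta
Procr, chr2:155750967-155751216, plus strand: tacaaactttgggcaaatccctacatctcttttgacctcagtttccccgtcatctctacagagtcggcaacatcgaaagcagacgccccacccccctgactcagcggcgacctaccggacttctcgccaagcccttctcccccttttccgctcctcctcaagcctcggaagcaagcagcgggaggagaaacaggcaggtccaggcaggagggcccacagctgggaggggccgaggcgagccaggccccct
Both Tfpi windows held 2 motifs, where 6.40% of all windows held 2 or more. Their first bases lay 76 and 54 bases before the start site in one and 103 and 18 bases before it in the other. The F8 window held 1, at 121 bases. A match describes these letters and no binding was measured.

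All 13 probes were well above background on all 4 arrays and were tested. Levels are given as log2 signal minus the 75th percentile of the array, so a level of 0 is that percentile itself and a difference of 1 is a doubling. Levels of different probes are not compared, since each probe has its own brightness. A log2 change is the mean of the G2-EC-KO arrays minus that of the control arrays. None of the 13 probes passed an adjusted p of 0.05 over all 26893 probes tested (limma, adjusted p from 0.565 to 0.938), where 0.00372% of all probes passed, and 0 of 13 had an unadjusted p under 0.05, where 9.63% of all probes did. In G2-EC-KO, 6 of the 13 probes lay higher and 7 lower. The median of their log2 changes was -0.18, against -0.0020 over all probes tested. By the brightest probe of each gene, 4 genes lay higher and 4 lower, with a median of -0.075. The 2 groups did not overlap at 3 of the 13 probes, against 46.4% of all probes. With 2 arrays against 2, the smallest two-sided p of an exact permutation test is 0.333.

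The arrays were alike in the share of probes detected and in saturation. The median absolute difference between replicates was 0.121 in control and 0.183 in G2-EC-KO. The 75th percentile signal was lowest on G2-EC-KO replicate 2, at 1181 against 1288 to 1438 on the other arrays. Between 63.8% and 66.5% of probes were well above background, 0 spots were saturated, and all 4 lay on 1 slide read in 1 scan. On that slide, positions 1 and 2 were control and 3 and 4 were G2-EC-KO, so slide position and genotype cannot be told apart. Gata2 itself read 1.86 and 2.17 in control and 2.17 and 2.46 in G2-EC-KO at probe A_51_P516625, where the log2 change was 0.29 (SE 0.18), and the change at A_52_P233441 was 0.17 (SE 0.14). By limma their adjusted p were 0.586 and 0.653. Whether these probes lie in the deleted part is not given in the sources used here, so every direction rests on the labels. All 16 endothelial identity markers were tested, and markers of cardiomyocytes (12 of 12) and of pericytes and smooth muscle (9 of 9) were also well above background. In such a preparation, fewer cells of a type and less RNA per cell cannot be told apart.

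Vwf encodes the multimeric glycoprotein that tethers platelets, stored in the Weibel-Palade granules of endothelial cells. At probe A_51_P103397 it read 5.52 and 5.62 in control and 5.52 and 5.25 in G2-EC-KO. G2-EC-KO replicate 1 lay between the control arrays and replicate 2 below both, so the groups overlapped. The log2 change was -0.18 (SE 0.14), a fold of 0.882 (95% interval 0.680 to 1.14). The second Vwf probe, A_51_P103406, read 4.04 and 4.11 in control and 4.06 and 3.71 in G2-EC-KO, with a log2 change of -0.19 (SE 0.16). G2-EC-KO replicate 2 was the lowest array at both probes, and without it the changes were -0.044 and -0.017.

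F8 encodes factor VIII, the cofactor that speeds the activation of factor X and travels bound to von Willebrand factor. Its probe, A_51_P289239, was dim. On control replicate 1 its signal was 2.17 times the dimmest signal called well above background there, the lowest such ratio of the 4 arrays. It read -4.35 and -4.48 in control and -4.36 and -4.21 in G2-EC-KO. G2-EC-KO replicate 2 was the highest of the 4 arrays here, while replicate 1 lay within the control range. The log2 change was 0.13 (SE 0.12; 95% interval -0.19 to 0.45), and it was 0.058 without G2-EC-KO replicate 2 and 0.20 without replicate 1.

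Thbd encodes thrombomodulin, the thrombin receptor of the vessel surface that switches thrombin from clotting to the activation of protein C. Its probe A_51_P291417 read 5.21 and 5.48 in control and 5.42 and 5.33 in G2-EC-KO. Both G2-EC-KO arrays lay between the control arrays. The log2 change was 0.031 (SE 0.14), a fold of 1.02 (95% interval 0.792 to 1.32), and its sign turned when control replicate 1 (-0.10) or G2-EC-KO replicate 1 (-0.017) was left out.

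Procr encodes the endothelial protein C receptor, which presents protein C to the complex of thrombin and thrombomodulin. It varied most of the 8 genes, with a range over the 4 arrays of 1.17 at probe A_51_P382152, which 4.93% of all probes reach or exceed. It read 3.72 and 3.58 in control and 3.69 and 2.55 in G2-EC-KO. G2-EC-KO replicate 1 lay within the control range, and replicate 2 alone stood low, with a processed signal of 6924 against 16618 to 18634 on the other arrays. The control mean was 3.65 ± 0.10 (SD, n = 2). The G2-EC-KO mean was 3.12 ± 0.81 (SD, n = 2). The log2 change was -0.53 (SE 0.39), a fold of 0.692 with the widest interval of the 8 genes, 0.337 to 1.42 (limma, adjusted p = 0.634). Without G2-EC-KO replicate 2 the change was 0.038, and without replicate 1 it was -1.10. Both the size and the sign of the change turned on which G2-EC-KO array was used.

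Tfpi encodes tissue factor pathway inhibitor, which blocks factor Xa and the complex of tissue factor with factor VIIa. Its 3 probes all lay higher in G2-EC-KO. The brightest, A_52_P670263, designed on accession NM_001177319, read 0.81 and 0.94 in control and 1.04 and 0.94 in G2-EC-KO, with a log2 change of 0.12 (SE 0.12), which was 0.053 without control replicate 1. A_52_P592007, on accession NM_011576, read -1.04 and -1.18 in control and -0.78 and -0.96 in G2-EC-KO, with a log2 change of 0.24 (SE 0.13; 95% interval -0.098 to 0.58). At these 2 probes the groups did not overlap, though at the first the gap between control replicate 2 and G2-EC-KO replicate 2 lay beyond the second decimal. The third probe, A_52_P631889, on the same accession as the second, overlapped between groups, with a log2 change of 0.074 (SE 0.12) that was -0.0037 without G2-EC-KO replicate 1. The adjusted p of the Tfpi probes lay between 0.566 and 0.816 (limma).

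Plat encodes tissue plasminogen activator, the protease that turns plasminogen into plasmin on fibrin. Its probe A_51_P301566 read 4.10 and 4.37 in control and 4.19 and 3.86 in G2-EC-KO, with a log2 change of -0.21 (SE 0.18). A_52_P409833 read 3.52 and 3.76 in control and 3.60 and 3.08 in G2-EC-KO, with a log2 change of -0.30 (SE 0.22), a fold of 0.813 (95% interval 0.547 to 1.21). As for Vwf, G2-EC-KO replicate 1 lay within the control range and replicate 2 was the lowest array at both probes. Without replicate 2 the changes were -0.044 and -0.041.

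Entpd1 encodes CD39, the ectonucleotidase that removes ATP and ADP and so limits platelet activation. Its probe A_51_P504337 read 2.36 and 2.25 in control and 2.25 and 1.98 in G2-EC-KO, with a log2 change of -0.18 (SE 0.14). At A_52_P21835 it read 0.75 and 0.80 in control and 0.65 and 0.35 in G2-EC-KO. Both G2-EC-KO arrays lay below both control arrays at this second probe, and it had the smallest p of the 13, with a log2 change of -0.27 (SE 0.14; unadjusted p = 0.120; limma, adjusted p = 0.565). At the first probe G2-EC-KO replicate 1 lay within the control range. Both changes stayed below 0 when any 1 array was left out, between -0.42 and -0.047.

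Ptgis encodes prostacyclin synthase, which makes the vasodilator and platelet inhibitor prostacyclin. Its probe A_51_P372819 read -0.29 and -0.35 in control and 0.048 and -0.37 in G2-EC-KO. Here G2-EC-KO replicate 1 stood above the other arrays, and replicate 2 lay just below the control arrays. The log2 change was 0.16 (SE 0.17), which was -0.052 without G2-EC-KO replicate 1 and 0.37 without replicate 2.

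**Figure D1:**
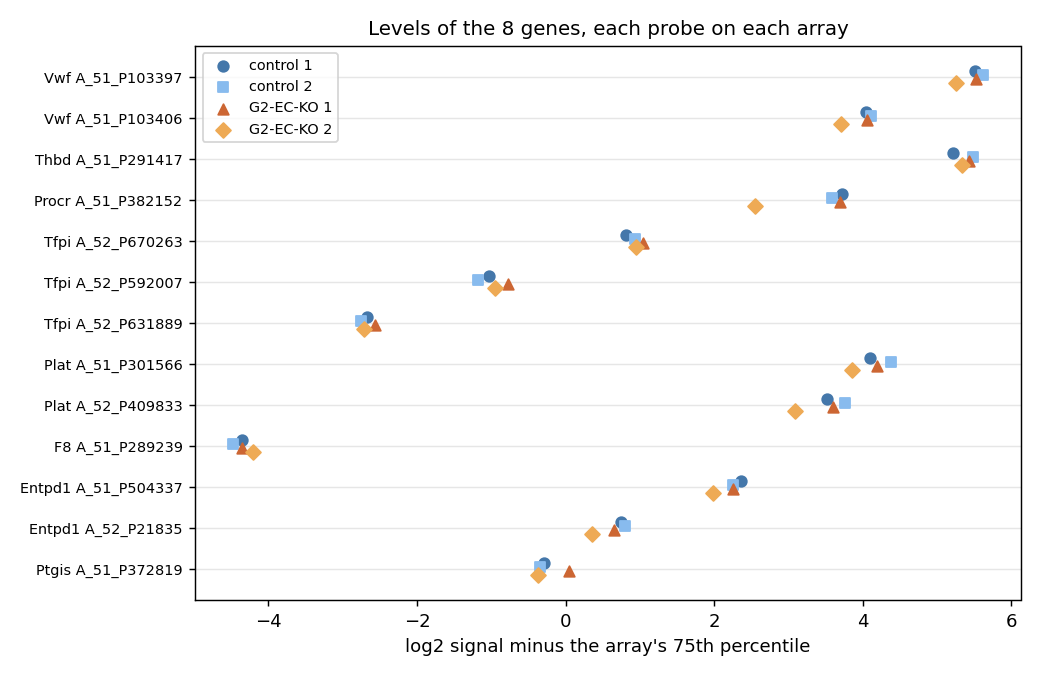
Level of each of the 13 probes on each array, as log2 signal minus the 75th percentile of the array; each mark is 1 array and each row 1 probe. The 4 marks of a row lie close together except at Procr, where G2-EC-KO replicate 2 stands at 2.55 and the other arrays between 3.58 and 3.72.

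The array labelled G2-EC-KO replicate 2 was the lowest of the 4 at 8 of the 13 probes, those of Vwf, Procr, Plat, Entpd1 and Ptgis, while it was the lowest at 32.1% of all probes tested. By the brightest probe, this held for 5 of the 8 genes. The median of the 8 genes relative to their control means was -0.19 on that array and 0.048 on G2-EC-KO replicate 1. Leaving that array out turned the median log2 change of the 13 probes from -0.18 to 0.038, and leaving out G2-EC-KO replicate 1 gave -0.32. Each of these fits rests on 1 G2-EC-KO array, so only the size of the change is given.

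**Figure D2:**
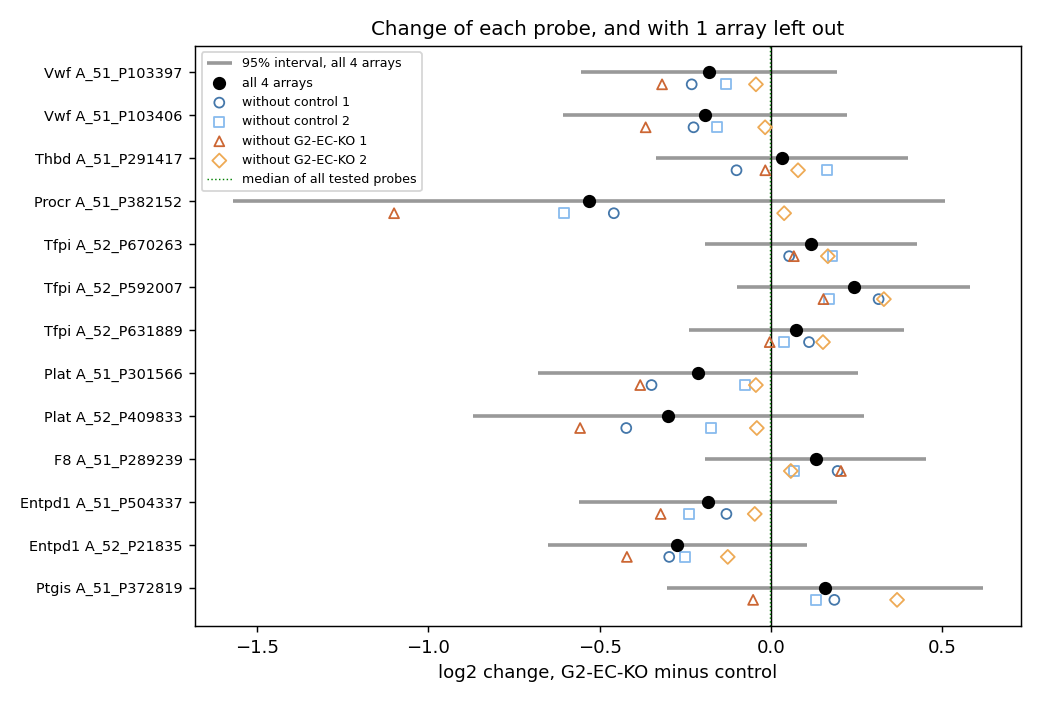
Log2 change (G2-EC-KO minus control) of the 13 probes with all 4 arrays (filled circles, with the 95% interval of the limma fit as bars) and with each array left out in turn (open marks); the dotted line is the median of all probes tested. All 13 intervals include 0, and leaving out G2-EC-KO replicate 2 moved Procr from -0.53 to 0.038.

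To place the pattern of Procr, the probes with the smallest root mean square difference of mean-centred values over the 4 arrays were taken from 19541 probes with a symbol that were well above background on every array. They belonged to Sgpl1, which encodes sphingosine-1-phosphate lyase (difference 0.022), Sele, which encodes the leukocyte adhesion receptor E-selectin (0.027), and Tgm2, which encodes a transglutaminase (0.029). Sele read 1.42 and 1.30 in control and 1.43 and 0.32 in G2-EC-KO, and Tgm2 probe A_51_P182796 read 2.07 and 2.01 in control and 2.07 and 0.93. Sgpl1 probe A_51_P391695 read -1.66 and -1.84 in control and -1.72 and -2.89 in G2-EC-KO. Each stood low on G2-EC-KO replicate 2 alone, which their choice by likeness to Procr fixed in advance. The brighter probes of Sgpl1 (A_52_P62223) and Tgm2 (A_52_P220879) were also lowest there, at 1.20 and 6.09 against at least 1.96 and 6.57 on the other arrays, respectively.

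**Figure D3:**
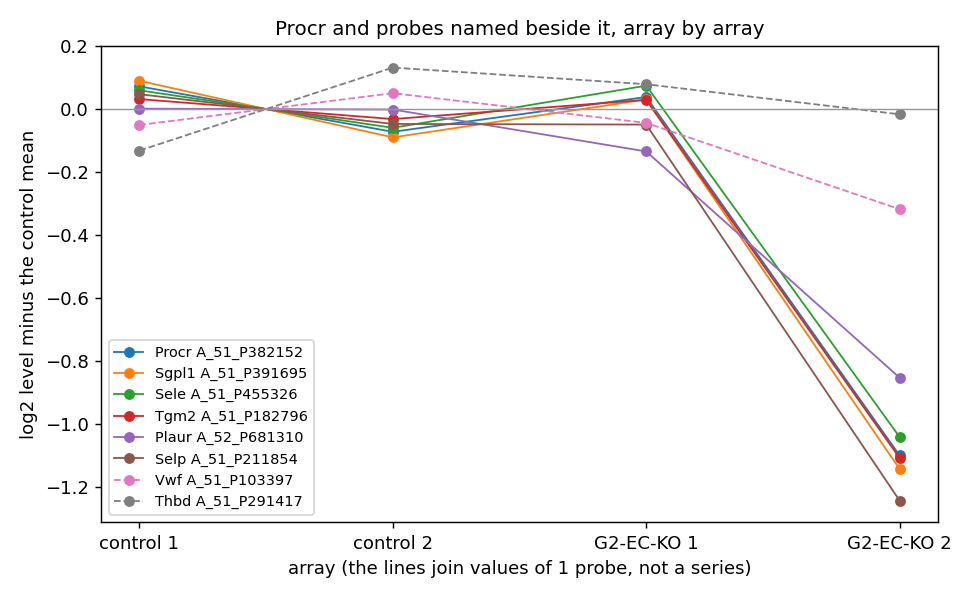
Log2 level minus the control mean on each array for Procr, the 3 probes most like it, Selp and Plaur (solid lines), and Vwf and Thbd (dashed lines); the lines only join the values of 1 probe. Procr, Sgpl1, Sele, Tgm2, Selp and Plaur stand low on G2-EC-KO replicate 2, where Vwf is at 5.25 against a control mean of 5.57 and Thbd at 5.33 against 5.35.

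Of the wider coagulation system, 75 genes in 7 lists were examined, of which 74 had a probe and 56 were tested by the brightest probe of the gene. None of the 56 passed an adjusted p of 0.05 (limma, smallest adjusted p = 0.387), and 4 (7.14%) had an unadjusted p under 0.05, against 9.63% of all probes tested. These 4 were Pla2g4a, F2rl3, Ptgs1 and Nos3.

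Among clotting factors, 5 of 15 genes were tested, with 3 higher and 2 lower and a median log2 change of 0.27, which was 0.097 without G2-EC-KO replicate 2. For 8 of the 15 no probe was well above background on any array, among them the fibrinogen chain genes Fga and Fgb and the factor genes F5, F11 and F12. F10, which encodes factor X, read -2.16 and -2.69 in control and -2.13 and -1.08 in G2-EC-KO, a log2 change of 0.82 (SE 0.40) that was 0.29 without G2-EC-KO replicate 2 and 1.34 without replicate 1. F13a1, the A subunit of the fibrin cross-linking factor XIII, had a change of 0.46 (SE 0.25), which was 0.14 without control replicate 1. F9, the gene of factor IX, had one of -0.19 (SE 0.11). The tissue factor gene F3 has 2 probes, with changes of -0.18 (SE 0.23) and -0.16 (SE 0.24).

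Of 9 genes of anticoagulant proteins and serpins, 6 were tested, with 1 higher and 5 lower and a median of -0.11, which was -0.0059 without G2-EC-KO replicate 2. Serpind1, the gene of heparin cofactor II, had a log2 change of -0.21 (SE 0.16), which was -0.052 without G2-EC-KO replicate 2. The 1 higher gene was Gas6, a vitamin K dependent ligand related to protein S that is not itself an anticoagulant. Gas6 read 5.38 and 5.36 in control and 5.45 and 5.50 in G2-EC-KO, a change of 0.10 (SE 0.11). Pros1, the gene of protein S, the cofactor of activated protein C, had changes of -0.15 (SE 0.17) and -0.22 (SE 0.19) at its 2 probes, the first of which was 0.040 without G2-EC-KO replicate 2.

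Of 12 fibrinolysis genes other than Plat, 10 were tested, with 6 higher and 4 lower and a median of 0.057, which was -0.025 without control replicate 1. S100a10, whose product binds plasminogen at the cell surface together with annexin A2, read 4.78 and 5.02 in control and 5.18 and 5.41 in G2-EC-KO, a change of 0.39 (SE 0.15), for which limma gave an adjusted p of 0.522. Plaur, the urokinase receptor gene, read 6.42 and 6.42 in control and 6.29 and 5.57 in G2-EC-KO at its brighter probe, a change of -0.49 (SE 0.26). Like Procr it stood low on G2-EC-KO replicate 2, and without that array its change was -0.13. A2m, a broad protease inhibitor gene, had a change of 0.25 (SE 0.13), which was 0.13 without control replicate 1.

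All 5 tested genes of thrombin and prostanoid receptors lay higher, with a median of 0.30 that was 0.11 without control replicate 1. F2rl3, the thrombin receptor gene for PAR4, read -4.74 and -4.72 in control and -4.20 and -3.94 in G2-EC-KO, a change of 0.66 (SE 0.14) that was 0.44 with normexp background correction. For it limma gave an adjusted p of 0.387. The F2rl3 probe was dim, at its lowest 1.66 times the dimmest signal called well above background. F2rl1 was well above background on 1 of the control arrays and on both G2-EC-KO arrays, with a change of 0.30 (SE 0.16), which was 0.11 without control replicate 1. Tbxa2r, the thromboxane receptor gene, had one of 0.32 (SE 0.26), which was -0.0094 without G2-EC-KO replicate 2. F2r, the main thrombin receptor gene of endothelium, had one of 0.055 (SE 0.16).

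The list of nucleotide, prostanoid and nitric oxide genes had 8 tested genes beside Entpd1 and Ptgis, with 6 higher and 2 lower and a median of 0.24. Not all of them restrain platelets, since the list held Tbxas1, the thromboxane synthase gene, with a change of 0.38 (SE 0.17). Pla2g4a, the phospholipase that frees arachidonic acid for prostanoid synthesis, read -2.10 and -1.91 in control and -1.38 and -1.23 in G2-EC-KO, a change of 0.70 (SE 0.13), for which limma gave an adjusted p of 0.387, and its second probe gave 0.74 (SE 0.12). Ptgs1, the cyclooxygenase upstream of Ptgis, read 1.97 and 2.06 in control and 2.32 and 2.50 in G2-EC-KO, a change of 0.39 (SE 0.12). Ptgs2, the inducible cyclooxygenase gene, had changes of 0.35 (SE 0.14) and 0.41 (SE 0.13) at its 2 probes. Ptges, the prostaglandin E synthase gene, went the other way, with a change of -0.27 (SE 0.10). It read -4.10 and -4.08 in control and -4.35 and -4.37 in G2-EC-KO. Nos3, the endothelial nitric oxide synthase gene, read 4.89 and 4.80 in control and 4.49 and 4.20 in G2-EC-KO, a change of -0.50 (SE 0.14; limma, adjusted p = 0.463). The groups did not overlap at 7 of the 8 genes, Nt5e being the exception, against 46.4% of all probes. This was the highest share of the 7 lists. Elsewhere it held for 3 of 5 clotting factor genes, 2 of 6 in the anticoagulant list and 4 of 10 fibrinolysis genes. It also held for 2 of 5 receptor genes, 2 of 12 Weibel-Palade genes and 6 of 10 synthesis and clearance genes. The median of the nucleotide, prostanoid and nitric oxide list lay between 0.18 and 0.28 when any 1 array was left out.

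All 12 genes of Weibel-Palade bodies, the granules that hold von Willebrand factor, were tested, with 8 higher and 4 lower and a median of 0.015, which was -0.028 without G2-EC-KO replicate 2. Selp, the P-selectin gene, whose product shares these granules with von Willebrand factor, read 3.38 and 3.28 in control and 3.28 and 2.09 in G2-EC-KO, a log2 change of -0.65 (SE 0.41) that was -0.049 without G2-EC-KO replicate 2. Its second probe read 2.03 and 1.96 in control and 1.71 and 0.041 in G2-EC-KO. Myrip, a linker of granules to the cytoskeleton, had a change of -0.20 (SE 0.20), which was 0.049 without control replicate 1, and Vps33b, a vesicle tethering gene, one of 0.14 (SE 0.15), which was -0.0089 without G2-EC-KO replicate 2. Of 12 genes of factor synthesis and clearance, 10 were tested, with 6 higher and 4 lower and a median of 0.037, which was 0.080 without control replicate 2. Ggcx, the vitamin K dependent carboxylase gene, had a change of 0.25 (SE 0.12), Lman1, which encodes a carrier of factor VIII out of the endoplasmic reticulum, one of 0.17 (SE 0.13), which was 0.064 without control replicate 1, and Lrp1, a clearance receptor gene, one of -0.15 (SE 0.11).

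Marker genes of the cell types that the samples could hold are given beside these values. For the 16 endothelial identity genes the median change was 0.020, which was -0.060 without control replicate 1. Their summed level was 762 and 833 in control and 793 and 796 in G2-EC-KO, in units of the 75th percentile signal. Scaled to these endothelial genes, the 13 probes had a median change of -0.18. On G2-EC-KO replicate 2, where Procr, Vwf, Plat and Entpd1 were lowest, 8 of 9 pericyte and smooth muscle markers were also at their lowest, with a summed level of 243 against 295 to 340 on the other arrays. The 12 cardiomyocyte markers summed to 152 there against 100.3 to 108 elsewhere. All 12 lay higher in G2-EC-KO, and their median change of 0.39 was 0.081 without G2-EC-KO replicate 2. On that array 3 of the 5 venous markers were also lowest, with a summed level of 24.7 against 32.0 to 38.5. Selp, already given among the Weibel-Palade genes, is 1 of these 3 and part of that sum. Platelet and megakaryocyte markers, which matter because platelets also carry Vwf, summed to 3.31 and 5.23 in control and 6.28 and 5.81 in G2-EC-KO, with 9 of 10 higher in G2-EC-KO, and their median change of 0.57 was 0.19 without control replicate 1 and 1.06 without control replicate 2. Macrophage and monocyte markers, cells that also express Entpd1, summed to 6.53 and 9.06 in control and 9.64 and 8.35 in G2-EC-KO, with all 9 tested genes higher, and their median change of 0.33 was -0.046 without control replicate 1. Their part in the values of the 8 genes was not tested.

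Leaving out 1 array moved the median of 19 of the 20 pathway and marker lists by over 1.5 times or turned its sign. Fibroblast markers summed to 86.9 and 112 in control and 115 and 115 in G2-EC-KO, with 7 of 8 higher. Endocardial markers summed to 17.3 and 15.8 in control and 21.2 and 19.0 in G2-EC-KO, with 4 of 6 tested genes higher. Hapln1 was the endocardial marker with no probe well above background. Arterial markers summed to 59.8 and 63.7 in control and 58.5 and 53.1 in G2-EC-KO, with 7 of 9 lower. Lymphatic markers summed to 36.5 and 49.2 in control and 36.0 and 33.3 in G2-EC-KO, with 5 of 7 lower, and their median of -0.22 was -0.070 without control replicate 2. Both sums were lowest on G2-EC-KO replicate 2. Erythroid markers summed to 86.2 and 74.7 in control and 148 and 78.1 in G2-EC-KO, so G2-EC-KO replicate 1 stood apart there. Lymphocyte markers summed to between 0.49 and 0.71 on every array, with Cd3g and Cd8a not well above background on any, and mesothelial markers to between 7.66 and 8.12. The mesothelial sum was mostly that of Wt1, and the 3 tested genes had a median change of 0.54, with 2 of 3 higher, or 0.24 over the genes well above background on all 4 arrays.

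**Figure D4:**
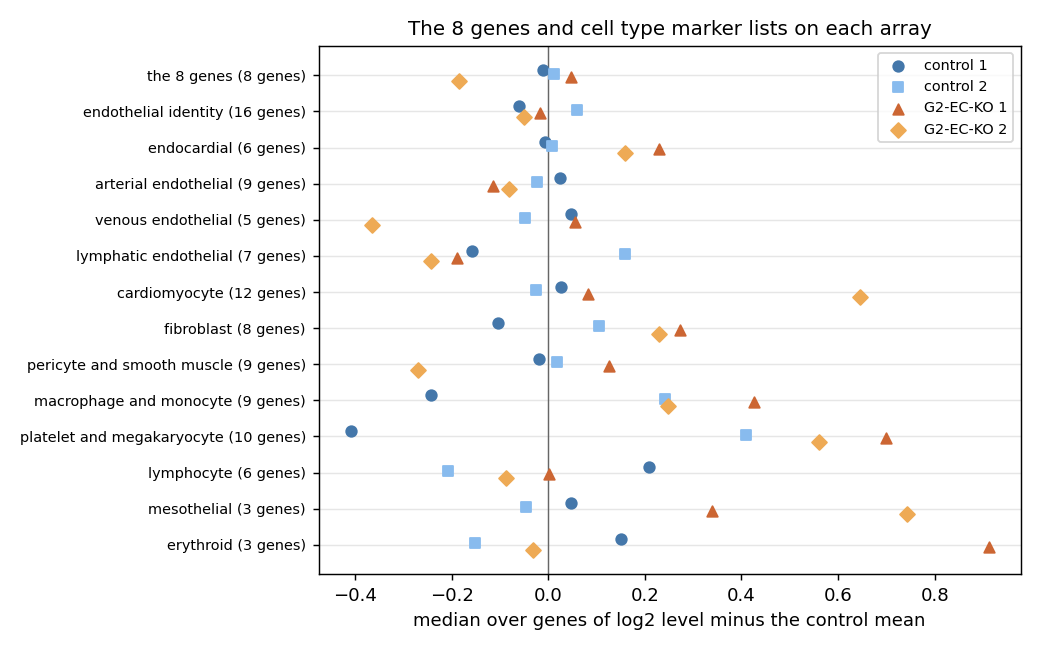
Median over genes of the log2 level minus the control mean, on each array, for the 8 genes and for 13 cell type marker lists; each mark is 1 array. On G2-EC-KO replicate 2 the 8 genes stand at -0.19, pericyte and smooth muscle markers at -0.27 and venous markers at -0.36, while cardiomyocyte markers stand at 0.65 and endothelial identity genes at -0.050.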

How the data were processed

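Each of the 4 arrays, of design 014868, was quantified with Agilent Feature Extraction 10.7.3.1 per the file headers (version 10.5 per the submitters' processing notes). The authors deposited linear spot intensity values. Per the file headers, background had been subtracted and a spatial trend removed on each array, with no scaling across arrays. The deposited value table, whose rows match median signal less median local background, plus 16, served as an alternative only.

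Control spots and outlier spots (87 to 101 per array) were left out, processed signals were put on a log2 scale relative to their array's 75th percentile, and replicate spots averaged. Tested probes were well above background on 2 or more of 4 arrays, by 0.5 or more of their spots. Symbols came from RefSeq (GRCm38.p6) by accession, for 26933 of 41174 probes. Coordinates are given for RefSeq's promoter windows alone, since the arrays are annotated on another build. The test was a two-sided limma 3.58.1 fit (R 4.3.3; lmFit, eBayes) with group as its only term and Benjamini-Hochberg adjustment over the 26893 tested probes, with 2 residual and 2.58 prior degrees of freedom and a median SE of 0.136. The fit was tested on simulated data with known changes. The number of arrays limits the precision.

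The members, gene lists and tests were chosen with earlier results of these data known. All members are named. From each list the 3 genes with the smallest p are named as values, since none passed, and from the marker lists the brightest may be. F3, F2r, Ptgs2, Ptges, Tbxas1 and the genes not above background were chosen after their values were seen. Alternatives were other background correction, normalization, filters and variance prior, the value table, a replicate block and leaving out each array. Normexp used the median spot signal, since the files used here hold no mean signal.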

Additional observations from a re-analysis of the deposited data

How the results depend on the processing

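Under normexp background correction, quantile normalization, median centring, centring on endothelial genes, both other filters on dim probes, the deposited value table, an intensity trend in the variance and the replicate block, 0 of 13 probes passed, as did 0 of 56 coagulation system genes (0 of 55 with signal required on all 4 arrays). All 117 member values kept their sign. Both filters, the variance trend and the replicate block leave the log2 change of a probe as it was, so those signs could not turn. The smallest adjusted p of a member lay between 0.498 and 0.861 (limma). With the replicate block the median of the 13 probes was -0.18, which the balanced design fixed in advance. The replicate numbers are not said to pair samples, and deviations of same-numbered arrays correlated at 0.044 over 26882 probes. When 1 array was left out, 47 member values kept their sign and 5 turned, and the median of the 13 probes lay between -0.32 and 0.038, the latter without G2-EC-KO replicate 2. The ranges that crossed 0 were -1.10 to 0.038 for Procr, -0.10 to 0.16 for Thbd, -0.052 to 0.37 for Ptgis and -0.0037 to 0.15 for Tfpi A_52_P631889. The count of probes called over the whole array was 1, and between 0 and 26 under the alternatives, the highest with centring on endothelial genes. Without a filter the median change of all probes was -0.066. F8, at 2.17 times the dimmest signal well above background, is the member whose value is most limited by signal.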
